A study of Mus musculus with 75 samples.

Results

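Hi-C maps of G1E-ER4 cells in mid G1 and late G1 were compared through the lists of domains, loops and stripes deposited for each stage. G1E-ER4 is a mouse erythroid precursor line, a subline of G1E cells, which lack the transcription factor GATA1; the strain is given as 129. Nocodazole at 200 ng/ml held the cells in pro-metaphase over 7 to 8.5 h, and after release they were sorted at 120 min for mid G1 and at 240 min for late G1. Each stage had 2 Hi-C libraries, so 4 of the 75 samples of the series, and 4 of its 10 Hi-C libraries, enter the comparison. CTCF and the cohesin subunit Rad21 were read from chromatin immunoprecipitation of the same stages, with 2 libraries for each protein and stage, and asynchronous cells served as an alternative. Every list pools the libraries of its stage, so there is 1 list per stage, no spread between replicates and no test between stages. Shares are given with exact 95% binomial intervals, which cover counting error only and treat features as independent although neighbours share anchors and boundaries. Read totals are not part of the lists, so the depth behind them is unknown, and a feature missing from a list was not called there, which does not show that the contact was absent.

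Interphase chromosomes are folded by cohesin, a ring complex that extrudes DNA into growing loops. CTCF, a zinc finger protein, halts extrusion at its binding sites, and a pair of such sites is seen in Hi-C as a loop, a focal pixel of high contact. Domains are stretches that contact themselves more than their surroundings and may be nested, boundaries are their ends, and a stripe is a line of contacts that runs from 1 anchor along the chromosome. Mitosis removes most of this folding, and it is rebuilt as cells enter G1. Mid G1 to late G1 is the last of the steps followed in this series.

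Features of 4 kinds were matched between the lists. A boundary was kept if the other stage had a boundary within 20 kb, a domain if both ends lay within 20 kb of the ends of 1 domain, a loop if both anchors lay within 20 kb of the anchors of 1 loop, and a stripe if its anchor overlapped that of a stripe of the same direction. Gained features are in the late-G1 list without a mid-G1 match, and lost features are in the mid-G1 list without a late-G1 match. The mid-G1 list held 12752 boundaries and the late-G1 list 13553. Of the late-G1 boundaries 3446 were gained, 25.4%, and of the mid-G1 boundaries 2847 were lost, 22.3%. Domains numbered 10286 and 10899, with 4655 gained (42.7%) and 4112 lost (40.0%). Loops numbered 9714 and 11340, with 2148 gained (18.9%) and 1027 lost (10.6%). Stripes numbered 1754 and 1745, with 85 gained (4.87%) and 94 lost (5.36%). Loops were thus the features with the most unequal gain and loss. From early G1 to mid G1, by the same rules, 30.4% of loops (29.5 to 31.4) were gained and 10.2% (9.52 to 10.9) were lost. The later step therefore had a smaller share of gained loops at a like share of lost ones. For boundaries and domains the shares of the 2 steps lay closer together, with 27.4% of boundaries gained and 22.9% lost, and 47.6% of domains gained and 41.1% lost, from early G1 to mid G1. For stripes the earlier step had 6.78% gained and 6.73% lost.

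**Figure D1:**
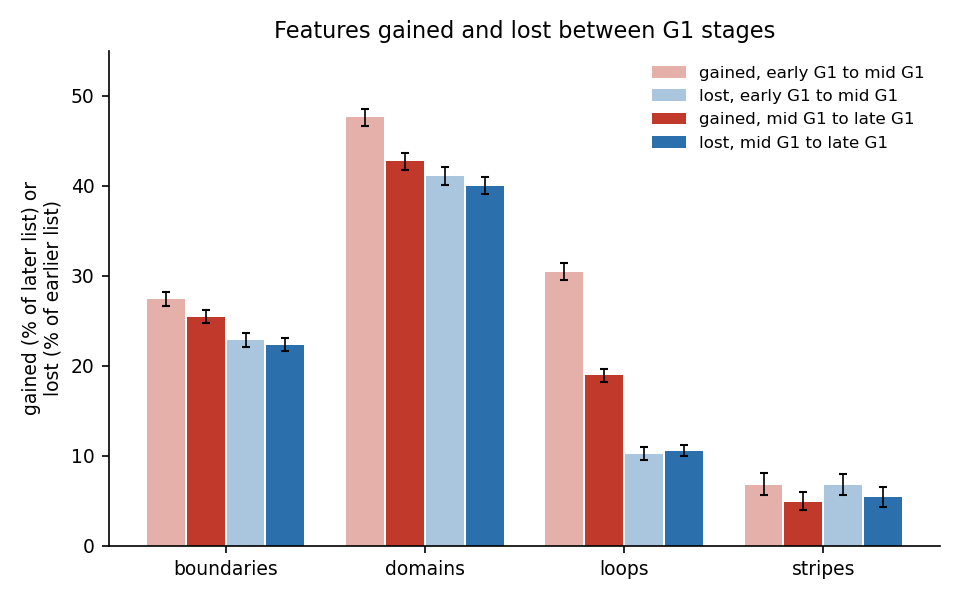
Share of features gained (percent of the later list, red) and lost (percent of the earlier list, blue) from early G1 to mid G1 (pale) and from mid G1 to late G1 (full colour), with exact 95% binomial intervals as bars. The share of gained loops is 30.4% in the earlier step and 18.9% in the later one, while the share of lost loops is 10.2% and 10.6%.

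The excess of gained over lost loops went with the longer late-G1 list. With both lists held to the 9714 loops of smallest deposited p-value, 14.8% of late-G1 loops were gained and 13.9% of mid-G1 loops were lost. Loops also cluster: 45.9% of kept mid-G1 loops had more than 1 late-G1 partner, and 41.2% of kept late-G1 loops had more than 1 mid-G1 partner. When each loop could be matched only once, 3742 late-G1 loops (33.0%) and 2116 mid-G1 loops (21.8%) had no partner. That rule keeps 7598 loops in each list, so the order of these shares follows from the list lengths.

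Boundaries that were gained or lost were mostly those of single domains and those without CTCF or cohesin. Of late-G1 boundaries at which 1 domain ended, 31.9% were gained (30.9 to 33.0, n = 7910), against 3.55% (2.24 to 5.32, n = 620) of those shared by 4 or more domains. Boundaries with a CTCF and a Rad21 peak of the stage within 20 kb were gained in 10.5% of cases (9.76 to 11.4, n = 5741), and those with neither protein in 41.3% (40.0 to 42.6, n = 5879). The lost boundaries had the same order, with 10.2% of the 5142 mid-G1 boundaries with both proteins and 37.6% of the 5063 with neither. A loop anchor of the stage within 20 kb also went with persistence: 9.29% of late-G1 boundaries with an anchor were gained and 35.9% of those without one. Of the ends of outermost domains 20.9% were gained (19.9 to 22.0), and of boundaries used by nested domains alone 29.3% (28.2 to 30.3). At the threshold itself, 1231 late-G1 boundaries lay 20 kb from the nearest mid-G1 boundary and 610 lay 30 kb away, while 1587 were more than 100 kb from any.

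Gained and lost boundaries both carried CTCF with Rad21 in a much smaller share than kept ones, and gained ones in a slightly smaller share than lost ones where the same peaks were used for both. Each by the peaks of its own stage, CTCF and Rad21 were both near 17.6% of gained boundaries (16.3 to 18.9) and 18.5% of lost ones (17.1 to 20.0). Neither protein was near 70.5% of gained (68.9 to 72.0) and 66.9% of lost boundaries (65.1 to 68.6). The kept boundaries carried both in 50.8% of cases by late-G1 peaks (49.8 to 51.8) and in 46.6% by mid-G1 peaks (45.6 to 47.6). By the mid-G1 peaks the share with both proteins was 15.7% at gained (14.5 to 17.0) and 18.5% at lost boundaries. By the late-G1 peaks it was 17.6% and 20.4% (18.9 to 21.9 at the lost ones). With either set of peaks the intervals were apart, but only narrowly. By asynchronous peaks the share was 14.3% at gained (13.1 to 15.5) and 15.8% at lost boundaries (14.5 to 17.2), and these intervals overlap. At the kept late-G1 boundaries it was 46.4% by mid-G1 and 50.8% by late-G1 peaks. The Rad21 list itself grew from 15762 to 18958 peaks, while the CTCF list went from 36009 to 33499.

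The smallest domains had the largest shares gained and lost, and the shares varied little with how deeply domains were nested. No domain in either list was shorter than 160 kb, so a partner below that size could not be matched. The part of this limit in the shares was not tested. Under 200 kb, 65.5% of late-G1 domains were gained (63.2 to 67.8, n = 1644) and 60.9% of mid-G1 domains were lost (58.4 to 63.4, n = 1467). From 200 to 390 kb they were 40.4% gained (38.9 to 41.9, n = 4134) and 39.8% lost (38.3 to 41.3, n = 4042). Domains of 200 kb and over made up most of those gained or lost, since 1077 of the 4655 gained and 894 of the 4112 lost domains were under 200 kb. From 400 to 990 kb the shares were 35.6% gained (34.1 to 37.2, n = 3821) and 33.4% lost (31.8 to 34.9, n = 3662). At 1000 kb and over, gain exceeded loss, with 42.0% of 1300 domains gained (39.3 to 44.7) and 34.8% of 1115 lost (32.0 to 37.7). Nesting depth is the number of larger domains that contain a domain. The gained share was 42.6% at depth 0 (41.0 to 44.1), 40.9% at depth 1 (39.1 to 42.7) and 47.9% at depth 5 or more (43.0 to 52.9).

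The late-G1 hierarchy was slightly deeper. Domains at depth 5 or more numbered 295 in mid G1 and were 407 by late G1, whereas outermost domains numbered 3731 and 3772. The greatest depth was 9 in mid G1, reached by 1 domain, and 10 in late G1, reached by 3 domains of which 2 were gained. Among 5593 domains paired 1 to 1 between the stages, 1584 were deeper in late G1 (28.3%, 27.1 to 29.5), 1344 were shallower (24.0%, 22.9 to 25.2) and 2665 kept their depth. Their sizes showed no such tilt, with 1900 larger, 1803 smaller and 1890 the same. The mean depth over all domains was 1.29 in mid G1 and 1.37 in late G1.

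A minority of gained domains arose between boundaries that were both new. In late G1, 1035 of the 4655 gained domains (22.2%) had no end within 20 kb of a mid-G1 boundary, 2428 (52.2%) had 1 such end and 1192 (25.6%) had 2. The last group joined boundaries already called in mid G1 into a domain that was not called there, and its median size was 600 kb, against 200 kb for domains with both ends new. Gained domains seldom had a loop between their ends: 5.63% did (4.98 to 6.33), against 16.9% of kept late-G1 domains (16.0 to 17.8). Of those 262 gained domains with such a loop, 61 had a loop that was itself gained (23.3%, 18.3 to 28.9), an interval that holds the 18.9% of all late-G1 loops. The largest gained domains were chr12:66270001-70220000 (3950 kb), chr14:99520001-103410000 (3890 kb) and chr17:59050001-62930000 (3880 kb). None of these 3 was called at an earlier stage and none had a corner loop. The largest lost domain, chr11:88930001-93740000, spanned 4810 kb. The deepest gained domains were 2 overlapping domains at depth 10 on chromosome 9, chr9:81290001-81490000 and chr9:81250001-81410000, followed by chr7:111860001-112170000 at depth 9.

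By their median, gained loops were weaker than kept ones. Observed/expected, the contact at the highest pixel over the value expected there, had a median of 2.82 in gained loops (quartiles 2.35 and 3.59) and 3.42 in kept late-G1 loops (2.71 and 4.71). Lost loops had a median of 3.19 (2.43 and 4.30) and kept mid-G1 loops 3.65 (2.85 and 5.04). The distributions overlap widely. Turnover depended steeply on the deposited p-value: among the 25% of late-G1 loops of smallest p, 2.93% were gained (2.34 to 3.62), and among the 25% of largest p, 38.9% (37.1 to 40.7). For lost loops the same shares were 1.89% (1.39 to 2.52) and 22.9% (21.3 to 24.7). Loops just inside and just outside the matching distance were alike in strength, with a median of 2.71 in the 571 late-G1 loops at 20 kb and 2.69 in the 368 at 30 kb. Loops farther from any match were stronger. The 830 late-G1 loops with no mid-G1 loop within 100 kb had a median of 3.17, still below the kept ones. The 433 mid-G1 loops with no late-G1 loop within 100 kb had a median of 3.92, above that of kept mid-G1 loops. Anchors were about as wide in both groups, with a mean of 22.6 kb in gained and 25.2 kb in kept late-G1 loops and a median of 20 kb in each.

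Both the longest and the shortest loops had high shares gained and lost. At 30 kb, the shortest size, 37.5% of 88 late-G1 loops were gained and 32.3% of 93 mid-G1 loops were lost, and at 40 kb 34.6% of 205 and 24.7% of 186. Neither list holds a loop shorter than 30 kb, so no shorter partner could be matched. From 400 to 990 kb, 25.6% of late-G1 loops were gained (22.8 to 28.5, n = 911) and 20.9% of mid-G1 loops were lost (18.1 to 23.8, n = 810). At 1000 kb and over, 39 of 103 were gained (37.9%, 28.5 to 48.0) and 19 of 78 were lost (24.4%, 15.3 to 35.4). Of the size classes, loops of 100 to 190 kb had the lowest shares, with 17.0% gained (15.9 to 18.1, n = 4737) and 6.62% lost (5.84 to 7.47, n = 3686). Between 200 and 390 kb the shares were 18.8% gained (17.6 to 20.2) and 10.1% lost (9.08 to 11.3). Over all loops under 100 kb they were 19.7% gained (18.1 to 21.5) and 13.5% lost (12.1 to 15.1). The interval of 100 to 190 kb overlaps those of both neighbouring classes for gained loops, and lies apart from them for lost loops only.

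A step in the late-G1 list at 100 kb touches every result by size. The mid-G1 list held 431 loops of 90 kb and 393 of 100 kb, and the early-G1 list held 347 and 295, while the late-G1 list held 352 and 596. Loops of 50 to 90 kb numbered 1884 in mid G1 and 1819 in late G1, a ratio of 0.965, and loops of 100 to 140 kb numbered 2000 and 2689, a ratio of 1.34. No such step separated early G1 from mid G1, with ratios of 1.14 and 1.30. The largest difference between the lists lay from 100 to 190 kb, with 3686 mid-G1 and 4737 late-G1 loops. What made the step was not tested. With loops under 200 kb left out of both lists, 24.3% of late-G1 loops were gained and 16.3% of mid-G1 loops lost, so gain exceeded loss there too. The late-G1 list was again the longer one, with 4491 loops against 3865.

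**Figure D2:**
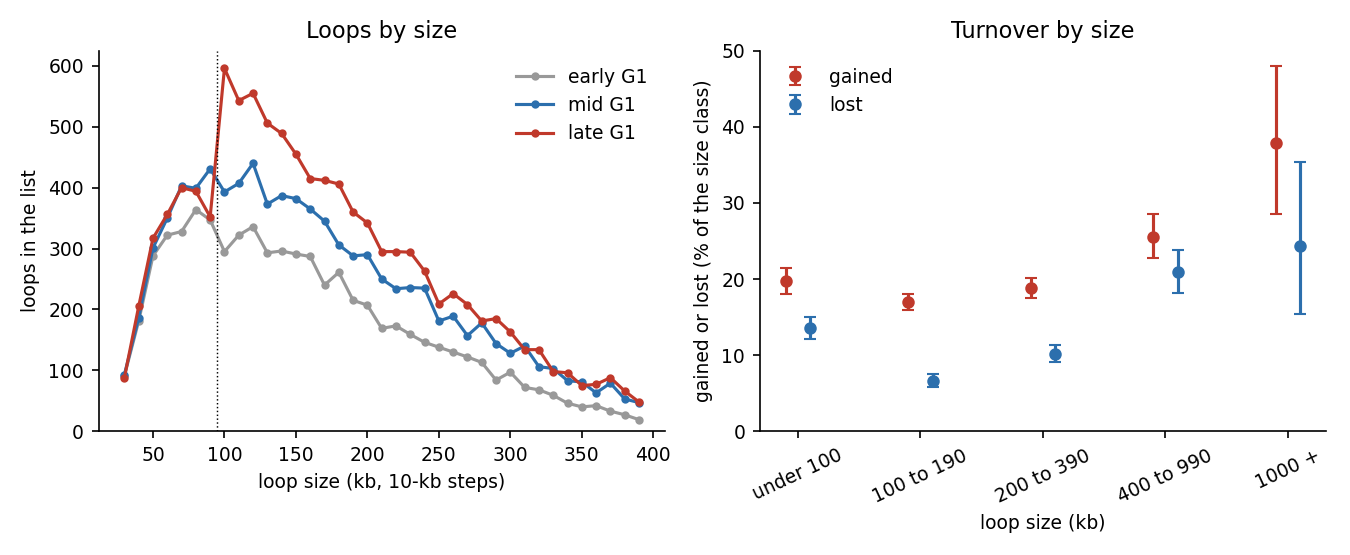
Left, number of loops in each 10-kb size step from 30 to 390 kb in the early-G1, mid-G1 and late-G1 lists, with a dotted line between 90 and 100 kb. The late-G1 list goes from 352 loops at 90 kb to 596 at 100 kb, and the other lists show no such step. Right, share of late-G1 loops gained and of mid-G1 loops lost by size class, with exact 95% binomial intervals; of these classes the one of 1000 kb and over has the highest shares, 37.9% and 24.4%, and the class under 100 kb pools loops of 30 kb with loops of 90 kb.

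Most gained loops had at least 1 anchor at or within 20 kb of an anchor that served a loop in mid G1. No share was computed for other positions, so it is not known how often this would hold elsewhere. Both anchors overlapped or lay within 20 kb of mid-G1 loop anchors in 1007 of the 2148 gained loops (46.9%, 44.8 to 49.0), 1 anchor did in 845 (39.3%) and none in 296 (13.8%, 12.3 to 15.3). Gained loops that joined 2 existing anchors carried CTCF and Rad21 at both anchors in 47.0% of cases and neither protein in 7.15%. Those with no existing anchor carried both in 34.5% and neither in 24.3%. Most lost loops left both anchors in use, with 594 of 1027 (57.8%, 54.8 to 60.9) keeping both as anchors of other late-G1 loops and 110 (10.7%) keeping none. Here too no share for other positions was computed. Isolated loops were without a match more often than those at shared anchors. Of late-G1 loops whose anchors served no other loop, 33.8% were gained (30.5 to 37.2, n = 787), against 15.2% (14.2 to 16.1, n = 5391) where the busier anchor served 4 or more loops. For lost loops these shares were 19.4% (16.8 to 22.2) and 8.68% (7.82 to 9.60). The matching rule favours this order, since a loop among others at a shared anchor has more neighbours that can count as its match. The shares were not computed with each loop matched once.

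A larger share of gained than of kept loops crossed a boundary. A loop that spanned an end of an outermost domain of its stage made up 6.10% of gained loops (5.12 to 7.20) and 2.84% of kept late-G1 loops (2.51 to 3.20). Lost loops did so in 6.82% of cases (5.35 to 8.53) and kept mid-G1 loops in 2.54% (2.22 to 2.90). Conversely, 9.26% of gained loops (8.07 to 10.6) and 12.3% of kept late-G1 loops (11.6 to 13.0) joined the 2 ends of a domain. Long loops span more boundaries, and the comparison was not made within size classes.

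CTCF and Rad21 stood at both anchors in a smaller share of gained and lost loops than of kept ones. By late-G1 peaks that overlap an anchor, both proteins were at both anchors of 836 gained loops (38.9%, 36.9 to 41.0) and of 4980 kept loops (54.2%, 53.2 to 55.2). By mid-G1 peaks they were at both anchors of 373 lost loops (36.3%, 33.4 to 39.3) and of 4446 kept loops (51.2%, 50.1 to 52.2). For gained loops the gap was made up mainly by loops with CTCF at 1 anchor, which were 35.1% of gained (33.0 to 37.1) and 24.8% of kept late-G1 loops (23.9 to 25.7). For lost loops it was spread over more classes. CTCF at 1 anchor was seen in 29.9% of lost and 23.1% of kept mid-G1 loops, and neither protein in 12.7% and 7.79%. CTCF at both anchors with Rad21 not at both was seen in 20.1% and 17.4%. Loops with neither protein were 12.2% of gained (10.8 to 13.6) and 8.77% of kept late-G1 loops (8.20 to 9.37). Rad21 without CTCF was rare in every group, at 21 gained and 87 kept late-G1 loops. Where both anchors had a peak, the fold enrichment of the weaker anchor, the authors' value per peak, had a median of 8.43 for Rad21 in gained and 10.1 in kept late-G1 loops. For CTCF these medians were 20.3 and 23.5.

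Read by class, 14.4% of late-G1 loops with both proteins at both anchors were gained (13.5 to 15.3, n = 5816) and 24.5% of those with neither (21.9 to 27.2, n = 1067). With late-G1 loops split into 4 equal groups by p-value, loops with neither protein had the larger share beyond the intervals only in the group of smallest p. In the 25% of late-G1 loops of largest p the order was the opposite, as 42.1% of loops with both proteins were gained (38.6 to 45.7, n = 755) and 33.9% of those with neither (29.7 to 38.3, n = 478). In the next 25% after the smallest the shares were 11.1% with both (9.64 to 12.8) and 9.69% with neither (5.94 to 14.7), and in the 25% after that 25.3% (22.8 to 28.0) and 24.0% (19.2 to 29.3), with intervals that overlap. In the 25% of smallest p the loops with neither protein had the larger share, at 2.33% of 2317 loops with both (1.76 to 3.03) and 9.28% of 97 with neither (4.33 to 16.9). Loops with both proteins were 2317 of the 2835 loops of smallest p and 755 of the 2835 of largest p; the part of this in the difference between the classes was not tested. Within the class the gained share also varied with size: of late-G1 loops with both proteins, 11.1% were gained from 100 to 190 kb (9.85 to 12.5) and 44.9% at 1000 kb and over (35 of 78, 33.6 to 56.6).

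**Figure D3:**
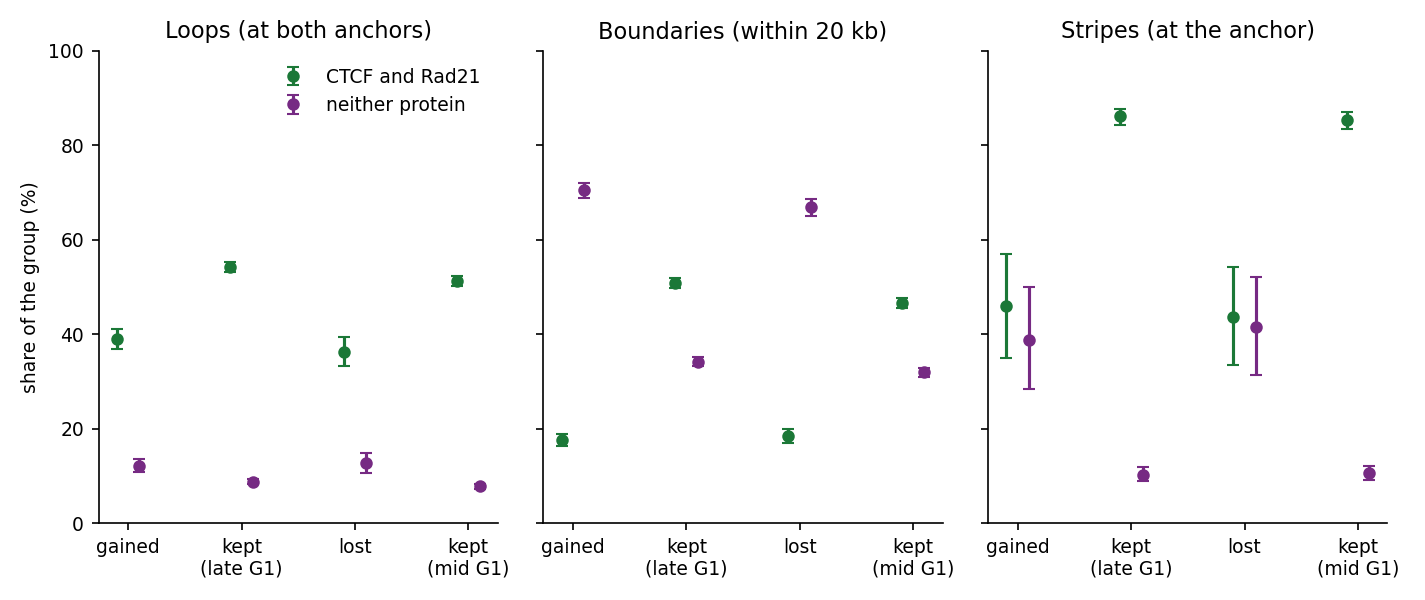
Share of loops, boundaries and stripes with CTCF and Rad21 (green) and with neither protein (purple) among gained, kept and lost features, by the peaks of the stage whose list holds the feature, with exact 95% binomial intervals. Kept features carry both proteins in a larger share in all 3 panels, and the intervals for both proteins overlap between gained and lost features within each panel.

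A change in binding at both anchors was uncommon. The arrival of Rad21 was about as frequent at kept loops as at gained ones, and CTCF was lost from a slightly larger share of lost than of kept loops. Rad21 was at both anchors in late G1 and not in mid G1 at 175 gained loops (8.15%, 7.02 to 9.39), 646 kept late-G1 loops (7.03%, 6.51 to 7.57) and 68 lost loops (6.62%, 5.18 to 8.32). These intervals overlap. The opposite change, Rad21 at both anchors in mid G1 alone, was seen at 26 gained loops (1.21%) and 18 lost loops (1.75%, 1.04 to 2.76). CTCF was newly at both anchors of 25 gained loops (1.16%), and it was at both anchors at both stages in 1088 (50.7%). CTCF at both anchors in mid G1 and not in late G1 was seen at 31 lost loops (3.02%, 2.06 to 4.26) and 141 kept mid-G1 loops (1.62%, 1.37 to 1.91), and these intervals do not overlap. It was seen at 60 gained loops (2.79%, 2.14 to 3.58) and 172 kept late-G1 loops (1.87%, 1.60 to 2.17), whose intervals overlap narrowly. Of gained loops 692 had Rad21 at both anchors at both stages (32.2%, 30.2 to 34.2), against 48.6% of kept late-G1 loops (47.5 to 49.6). At 1255 gained loops (58.4%) Rad21 was at both anchors at neither stage, against 43.1% of kept late-G1 loops.

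Loops called at both stages changed little in strength. A loop that changed so much that it was called at 1 stage only is not among them, which limits the change that can be seen. Nearest pairs, with each loop used once, gave 7598 matched loops, of which 1033 had identical anchors and 2861 the same highest pixel. Median observed/expected was 3.74 for mid G1 and 3.60 for late G1. The log2 ratio of late G1 over mid G1 had a median of -0.06 (quartiles -0.26 and 0.12), and 3110 loops (40.9%) were higher in late G1. A change of at least 1.5-fold was seen upward in 165 loops (2.17%) and downward in 352 (4.63%). The observed and the expected value moved apart: observed alone had a median log2 ratio of 0.08 and expected one of 0.14. Observed contact by itself was thus slightly higher in late G1, while its quotient with expected was slightly lower. Among matched pairs the late-G1 loop was longer in 2269, shorter in 2095 and of the same size in 3234.

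The small shift was nearly the same in every class of late-G1 binding. The median log2 ratio of observed/expected was -0.06 in the 4594 matched loops that had both CTCF and Rad21 at each anchor by late-G1 peaks and -0.06 in the 547 with neither protein. Loops with Rad21 newly at both anchors in late G1 had a median of -0.03 (quartiles -0.24 and 0.15, n = 553), and those with Rad21 there at both stages -0.07 (-0.26 and 0.12, n = 4155). Loops with CTCF newly at both anchors had a median of 0.02 (quartiles -0.19 and 0.18, n = 75), and 56.0% were higher in late G1. The median observed/expected of these few loops was nevertheless 3.08 in mid G1 and 2.94 in late G1, so their direction is not clear. Loops with CTCF at both anchors in mid G1 alone had a median log2 ratio of -0.12 (-0.29 and 0.12, n = 126), and 34.1% were higher. No interval was computed for these medians. Within each of these pairs the quartile ranges overlap widely. By size the median was -0.12 under 100 kb, -0.02 from 100 to 190 kb, -0.06 from 200 to 390 kb and -0.11 from 400 to 990 kb. The shortest class shows the step at 100 kb again: the expected value had a median log2 ratio of 0.22 in the 1334 matched loops of 50 to 90 kb and 0.11 in the 1769 of 100 to 140 kb, with observed at 0.10 and 0.08. Chromosomes had medians between -0.10 (chromosome 12) and -0.02 (chromosome 10).

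**Figure D4:**
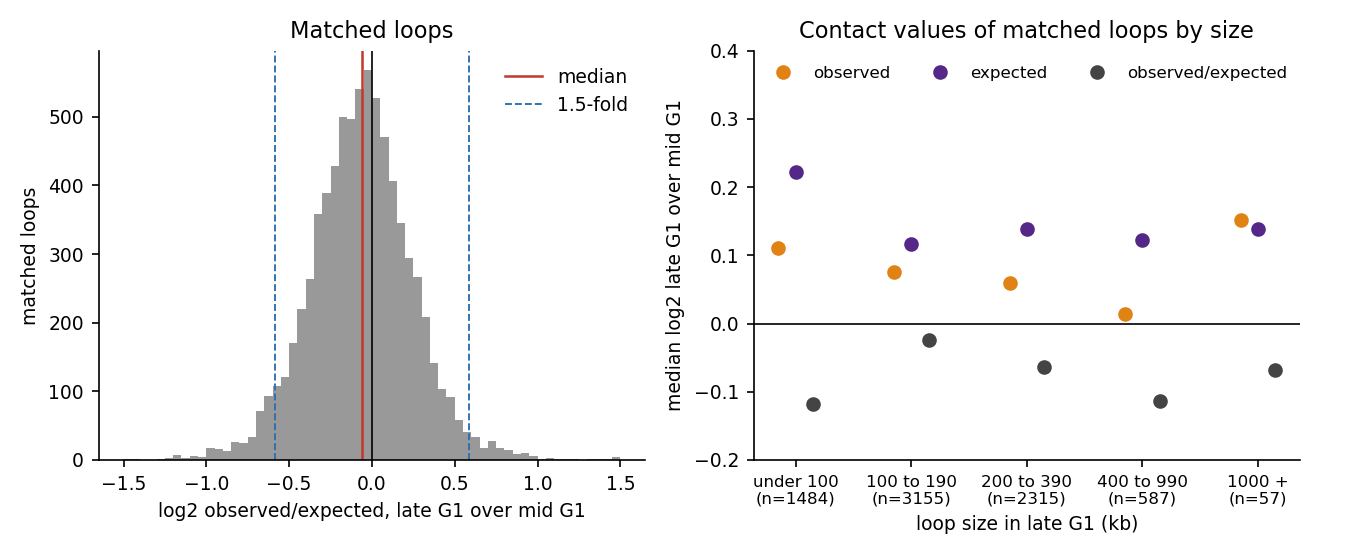
Left, log2 ratio of observed/expected, late G1 over mid G1, in 7598 matched loops (values beyond the axis are drawn in the end bars), with the median and the bounds of a 1.5-fold change. Right, median log2 ratios of the observed value, the expected value and their quotient by loop size; expected lies above observed in every class but the 57 loops of 1000 kb and over, and the quotient lies below 0 in all 5.

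Single loops are named here from the 1033 pairs of identical anchors, which do not cover the range of all matched loops: of the 7598, 19 were higher and 28 lower by at least 2-fold. Among pairs of identical anchors the highest ratio of late G1 to mid G1 was at chr19:61160001-61180000 and chr19:61330001-61350000, a loop of 180 kb with CTCF and Rad21 at both anchors at both stages. Its observed value was 26.3 at the first stage and 54.2 at the second, and its observed/expected 2.82 and 5.62, 1.99-fold higher in late G1. The next were a loop of 250 kb at chr8:63090001-63110000 and chr8:63340001-63360000, from 5.12 to 9.02, and one of 110 kb at chr2:62170001-62200000 and chr2:62290001-62300000, from 3.73 to 6.27. The last of these had CTCF at both anchors at both stages and Rad21 at both only in late G1. The lowest ratio among them was at chr1:156630001-156640000 and chr1:157050001-157080000, 440 kb apart, from 17.8 to 8.87, with both proteins at both anchors throughout. It was followed by chr3:86140001-86150000 and chr3:86560001-86590000, from 9.36 to 4.93, and chr12:116400001-116430000 and chr12:117010001-117030000, from 26.2 to 13.9. The chromosome 12 loop had no CTCF peak at its anchors.

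Strong gained loops were found with and without the 2 proteins. The gained loop of highest observed/expected with both proteins at both anchors joined chrX:67620001-67630000 to chrX:67800001-67830000, with an observed/expected of 15.3, and its closest mid-G1 loop was 1030 kb away. The next joined chr3:31680001-31700000 to chr3:32390001-32410000 (14.6) and chr1:90310001-90330000 to chr1:92480001-92500000 (13.7). At 2160 kb the last is also among the 3 longest gained loops, behind one of 2260 kb on chromosome 2 (chr2:168070001-168090000 and chr2:170320001-170340000, 5.63) and one of 2240 kb on chromosome 5 (chr5:5750001-5760000 and chr5:7980001-8010000, 10.5). At the anchors of these 5 loops CTCF and Rad21 peaks were already called in mid G1, and none of the 5 loops was called at an earlier stage. Without either protein, the highest gained loop joined chr4:113090001-113110000 to chr4:113940001-113960000 with an observed/expected of 99.8. It lies beside a lost mid-G1 loop, chr4:112780001-112800000 and chr4:113460001-113490000, whose deposited expected value of 3.57e-16 gives no usable ratio. The next 2 gained loops without either protein were chr17:36500001-36530000 with chr17:36900001-36920000 (14.6) and chr19:8030001-8060000 with chr19:8320001-8350000 (9.46). The observed values of these loops on chromosomes 4, 17 and 19 were 279, 55.2 and 52.7, against a median of 22.2 over all gained loops. What made them so high was not tested. The gained chromosome 4 loop had been called in ana/telophase and the chromosome 19 loop in early G1, while the chromosome 17 loop had no earlier call. The closest mid-G1 loop to the chromosome 19 loop was 60 kb away.

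Among lost loops the longest and, of those with both proteins at both anchors, the highest in observed/expected was one of 4310 kb at chr10:3010001-3030000 and chr10:7310001-7330000, at 20.6. Both proteins were still called at both of its anchors in late G1. Its observed value was 16.7 and its expected value 0.807, so its high ratio goes with a low expected value. The next with both proteins were chr2:61820001-61840000 with chr2:62460001-62480000 (13.1), which had been called in early G1, and chr12:75410001-75440000 with chr12:76490001-76500000 (12.4). The lost loops with neither protein included chr4:143200001-143220000 with chr4:143480001-143500000 at 22.0 and chr12:116480001-116500000 with chr12:116630001-116650000 at 20.0. The latter lies inside the span of the chromosome 12 loop that went from 26.2 to 13.9. It had been called in early G1, and the lost chromosome 4 loop in ana/telophase. Their observed values were 147 on chromosome 12 and 76.4 on chromosome 4, against a median of 21.7 over all lost loops. What made these values high was not tested either.

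The domains with the most gained loops were also rich in loops, and the gained share over all late-G1 loops was 18.9%. No domain was compared with an expected count. The domain chr3:94050001-96050000, 2000 kb long, outermost and kept from mid G1, held the most, with 13 gained loops among 36, against 27 loops in mid G1 of which 2 were lost. The gained loops there were 30 to 350 kb long with a median of 230 kb, and the 23 kept ones 40 to 190 kb with a median of 100 kb. Above 190 kb the late-G1 list held 10 gained loops and no kept one in this domain. The 25 kept mid-G1 loops there reached 230 kb, and 3 of them were above 190 kb. Observed/expected was 1.65 to 5.47 (median 2.46) in the gained loops and 1.88 to 5.76 (median 2.95) in the kept late-G1 loops, which overlap. CTCF and Rad21 were at both anchors of 7 of the 13 gained and 19 of the 23 kept loops. The next were chr1:129660001-132430000, with 11 gained of 30 loops and 22 in mid G1, and chr17:45560001-47880000, with 11 gained of 42 and 30 in mid G1. In these 2 domains the gained loops had medians of 240 and 160 kb, and the kept loops 220 and 120 kb. Over whole chromosomes the share of gained loops ran from 15.0% on chromosome 19 (11.5 to 19.2) to 23.7% on chromosome 16 (19.5 to 28.3).

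**Figure D5:**
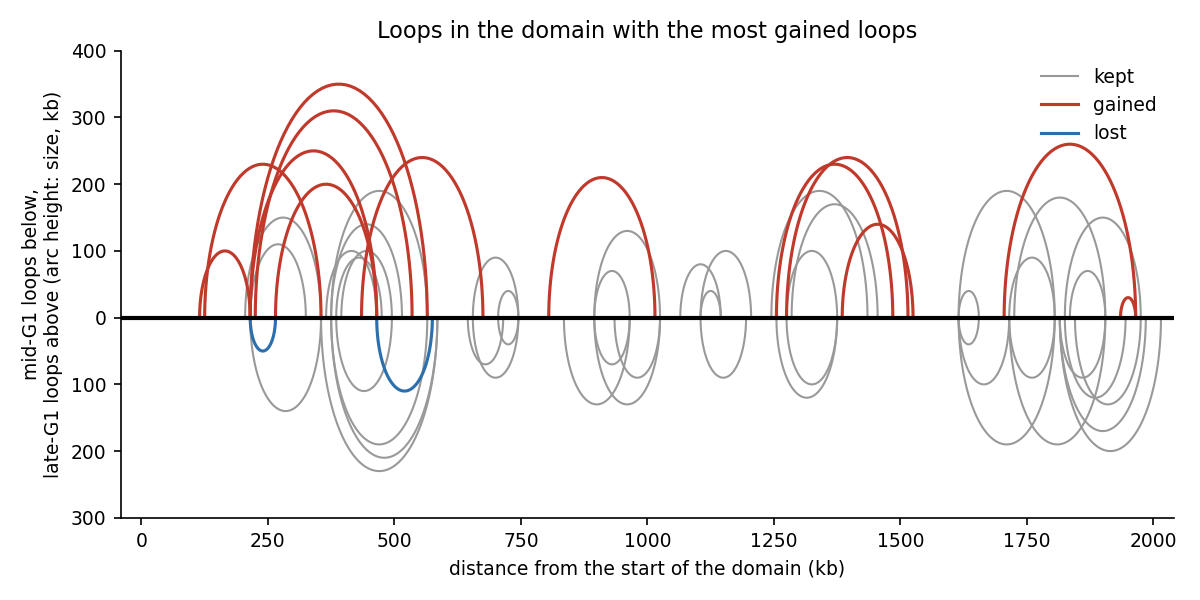
Loops of a domain of 2000 kb on chromosome 3 as arcs between their highest pixels, with late-G1 loops above the line and mid-G1 loops below, arc height equal to loop size in kb, and position as distance from the domain's start. The 13 gained loops (red) include the longest arcs, up to 350 kb, and stand over or between 23 kept loops (grey); 2 mid-G1 loops were lost (blue).

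The stripe lists held nearly the same set at both stages, and stripes were slightly weaker in late G1. Whether the stripes of each stage were called separately or from a joint set is not known. The likeness of the lists, and the few gains and losses, can therefore not be read as stability of stripes. Of 1745 late-G1 stripes, 1729 (99.1%, 98.5 to 99.5) had a mid-G1 stripe of the same direction with its anchor within 20 kb, and 1724 (98.8%) had an early-G1 one. Most stripes counted as gained or lost by overlap were therefore neighbours of a stripe of the other stage, and their anchors were narrow, with a median of 10 kb against 20 kb in kept stripes. Over 1660 matched stripes the median strength, the observed over the expected sum, was 2.98 for mid G1 and 2.82 for late G1. The log2 ratio had a median of -0.08 (quartiles -0.20 and 0.04), and 1090 stripes (65.7%) were weaker in late G1. Changes of at least 1.5-fold were few, 3 upward (0.181%) and 22 downward (1.33%). As in loops, both parts of the ratio were higher in late G1, with a median log2 ratio of 0.19 for the observed and 0.26 for the expected sum.

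The reach of stripes showed no shift in its median. Reach, from the anchor to the far end of the stripe, had a median of 520 kb at both stages, with 760 stripes longer, 741 shorter and 159 the same in late G1. Among the 190 stripes with a mean reach of 800 kb and over, 97 were longer and 82 shorter. CTCF and Rad21 were at the anchors of 86.1% of kept stripes in late G1 (84.4 to 87.8) and 85.3% in mid G1 (83.5 to 87.0). They were at 45.9% of the 85 gained (35.0 to 57.0) and 43.6% of the 94 lost anchors (33.4 to 54.2), which are narrower and so offer less room for a peak. Stripes with CTCF and Rad21 at the anchor had a median log2 strength ratio of -0.08 (n = 1430) and those with neither -0.06 (n = 171). The strongest gained stripes had anchors at chr1:16080001-16100000 (strength 7.97), chr9:115210001-115220000 (6.49) and chr5:49750001-49760000 (4.92). The last touches the anchor of the strongest lost stripe, chr5:49760001-49770000 (6.41), while the chromosome 9 stripe had no mid-G1 anchor of its direction within 3170 kb and neither protein. The other named lost stripes, at chr1:194530001-194540000 (5.03) and chr13:38290001-38300000 (4.91), also touch the anchor of a late-G1 stripe.

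Kept features had a longer history than gained or lost ones. Of kept late-G1 loops 74.3% (73.4 to 75.2) were called in pro-metaphase, ana/telophase or early G1, and of gained loops 23.9% (22.1 to 25.7), so 513 gained loops were returns after absence from the mid-G1 list alone or for longer. The 483 gained loops called in early G1 had a median size of 140 kb and an observed/expected of 2.61, and the other 1665 had 180 kb and 2.88. Loops called in all of early, mid and late G1 numbered 6786 of 11340 (59.8%). Of lost loops 28.2% (25.5 to 31.1) had been called before mid G1, so the rest were called in mid G1 only. Gained boundaries had been called earlier in 37.5% of cases (35.8 to 39.1), lost ones in 45.1% (43.3 to 46.9) and kept late-G1 boundaries in 86.9% (86.2 to 87.5). Gained boundaries with an earlier call had CTCF and Rad21 within 20 kb in 25.9% of cases (23.5 to 28.4), and those called for the first time in 12.6% (11.2 to 14.0).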

How the data were processed

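The submitters' processing notes name Bowtie2 and HiC-Pro for Hi-C. For ChIP-seq they name Bowtie 0.12.7, MACS2 2.1.0, bedtools 2.27.1 and SAMtools 1.7. The build is mm9 throughout. The tools that called the features and the normalization of contacts were not given in the sources used here. Deposited domain lists hold positions in bins of 10 kb. The deposited loop lists hold 2 anchors, the highest pixel, an observed and an expected contact signal and a p-value per loop, per the file headers. The deposited stripe lists hold an anchor, a body, observed and expected signal sums and their ratio as strength, per the file headers. The deposited peak lists hold the authors' fold enrichment, a ratio, per peak.

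Lists were matched as the report states. Python 3.11.15 was used with pandas 2.3.3, NumPy 2.4.6 and SciPy 1.17.1; Matplotlib 3.10.9 drew the plots. The functions were tested on simulated data and against bedtools 2.31.1. A protein was at a loop or stripe anchor if a peak shared at least 1 bp, and at a boundary if a peak lay within 20 kb. Loop size separates the 2 bins of the highest pixel. Matched loops were nearest pairs by pixel, each used once. A loop without a usable expected value stayed out of ratios. No p-value was computed, since each list pools its replicates. Alternatives were other distances, stricter p-values and peaks, lists of equal length, asynchronous peaks and other match rules. Features and lists were chosen with earlier results of these data known. Regions were named by rule: the 3 highest, longest, deepest or most changed features of each kind. The gene annotation at hand belongs to another build, so genes are not used here.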

Additional observations from a re-analysis of the deposited data

How the results depend on the processing

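No paired analysis was possible because each stage has 1 pooled list per feature, and leaving out a replicate was not run for the same reason. Matching boundaries within 10 kb gave 34.5% gained and 31.1% lost, within 40 kb 18.1% and 15.3%, and with outermost domains only 32.3% and 31.5%. Domains with both ends within 10 kb gave 56.6% gained and 54.2% lost, and within 40 kb 31.7% and 28.7%. Loops within 10 kb gave 24.0% gained and 14.2% lost, within 40 kb 13.2% and 7.39%, with lists of equal length 14.8% and 13.9%, and of 200 kb and over 24.3% and 16.3%. With each loop matched once they were 33.0% and 21.8%. Stripes within 20 kb gave 0.917% gained and 1.37% lost. Gain exceeded loss for boundaries, domains and loops under each of these settings. The late-G1 list was the longer one in all of them but the setting of equal length. With each loop matched once, both lists keep the same number of loops, so that order follows from list length alone. At equal length the intervals overlapped, at 14.1 to 15.5 gained and 13.3 to 14.7 lost. They also overlapped with outermost domains only, at 31.2 to 33.5 and 30.3 to 32.7. All stripes are longer than 100 kb, so that limit removed none. Among matched loops, the median log2 ratio was -0.17 with the match of highest observed/expected, -0.0752 with identical anchors, -0.0745 at 200 kb and over, and 0.0756 for observed alone, which reversed the sign. The first of these settings takes the highest of several mid-G1 values for each late-G1 loop. That lowers the ratio by construction, so the value of -0.17 says nothing about a fall. At a lower fold bound 703 loops were higher and 1388 lower in late G1, and at a bound of 2, 19 and 28. Divided by their median, 228 were higher and 236 lower.

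For gained, kept late-G1, lost and kept mid-G1 loops in turn, CTCF and Rad21 were at both anchors of 28.3%, 44.0%, 32.0% and 46.0% by asynchronous peaks. With anchors widened by 10 kb these were 48.6%, 62.5%, 45.2% and 58.9%, and with peaks of fold 5 and over 34.5%, 50.1%, 32.9% and 46.9%. For boundaries in the same order, both were within 10 kb of 11.0%, 32.1%, 11.5% and 29.0%. Asynchronous peaks gave 14.3%, 42.7%, 15.8% and 43.0%, and peaks of fold 5 and over 16.3%, 47.9%, 16.5% and 43.8%. For kept late-G1 stripes asynchronous peaks gave 83.6%. Kept features had the larger share under each. The alternatives of one match per loop, of 200 kb and over, and of domains lost were chosen after seeing the data. Depth is unknown, so a weaker call at 1 stage cannot be told apart from fewer reads.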
